A study of Mus musculus with 3 samples.

Results

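The VEGF and angiopoietin system was described here through 10 genes that were given by name: the receptor tyrosine kinase genes Kdr, Flt1, Flt4, Tek and Tie1, the coreceptor gene Nrp1, and the ligand genes Vegfa, Vegfc, Pgf and Angpt1. They are 10 of 30175 gene names on the array. All probes with these names were taken, 14 of 39429, and all 14 passed the filter on dim probes described with the processing. The study grew mouse embryoid bodies, floating aggregates of embryonic stem cells that differentiate once the self-renewal cytokine LIF is withdrawn, for 10 days in suspension. The tested embryoid bodies carried Dido3deltaCT+HADidoNT, a Dido3 protein shortened at its C-terminal end together with extra HA-tagged N-terminal Dido protein, which holds the PHD finger, and they are called mutant here. They were set against wild-type embryoid bodies of the same age, with 3 biological replicates a genotype. Each of 3 two-colour Agilent arrays held 1 mutant and 1 wild-type RNA, and the mutant carried the Cy5 dye on array 2 and the Cy3 dye on the others. The sources used here do not give the promoter behind the added Dido protein or the number of stem cell clones.

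VEGF ligands bind receptor tyrosine kinases on endothelial cells and their mesodermal precursors. Kdr (VEGFR2) carries most of the growth and survival signal, Flt1 (VEGFR1) binds VEGF-A and placental growth factor tightly and is also made as a soluble decoy form, and Flt4 (VEGFR3) is the main receptor of VEGF-C in lymphatic and early blood vessels. Nrp1 holds VEGF-A beside Kdr and also serves semaphorins in the nervous system. Angiopoietin 1, made largely by mesenchymal and cardiac cells around vessels, activates Tek (Tie2), with which the orphan receptor Tie1 pairs. In embryoid bodies these genes are commonly used to follow the vascular part of mesoderm.

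The probes decide which piece of each transcript was measured, and for Flt1 and Kdr the probes of a gene gave unlike results. The first 30 of the 60 bases of the probes behind the main differences are therefore shown as the scanner files list them, with positions of build mm9. Flt1 was read by 3 probes on the minus strand of chromosome 5, at 148373791 to 148373850, 148446872 to 148446931 and 148465976 to 148466035. The last 2 of these lay 73081 and 92185 bases upstream of the first, and the file gives each of the 3 a transcript of its own. Kdr was read by a probe at 76329309 to 76329368, spotted 10 times, and by a probe 1086 bases upstream at 76330395 to 76330454, both on the minus strand of chromosome 5 and assigned to 1 transcript. Nrp1 had a probe at 131026650 to 131026709 on chromosome 8 (plus strand) and Angpt1 a probe at 42256335 to 42256394 on chromosome 15 (minus strand).
Flt1 first probe: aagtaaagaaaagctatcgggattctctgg
Flt1 second probe: ggagggtactgccgttcctgtgtggtattt
Flt1 upstream probe: tccctatcccaactacacattcaatcttct
Kdr first probe: ctactgtatcctttagaattttaacctata
Kdr second probe: tgtttaaatggaagtggtcctgtcccggct
Nrp1 probe: ttgtggatggtgtaaagttgaaaaaagata
Angpt1 probe: catgtgtgtagcaatttgatacgcatagct
The GC content of the 60 bases was 40% for the first Flt1 probe against 35.0% and 45.0% for the other Flt1 probes, and 35.0% for the first Kdr probe against 55.0% for the second. Exons and UTRs were not assigned to the probes, since annotation of build mm9 was not used here. The file's chromosome was that of RefSeq (GRCm38.p6) for all 14 probes.

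Of the 10 genes, 4 were higher in the mutant embryoid bodies at an adjusted p under 0.05: Nrp1 (11.8-fold), Flt1 (8.32-fold), Angpt1 (5.79-fold) and Kdr (4.83-fold), each by its brightest probe. None was called lower in limma (0 of 10, against 0.641% of all genes), and 7 were higher at an unadjusted p under 0.05, against 12.2% of all genes. Over the array, 1.89% of 19667 genes were called higher by the same rule, 372 genes in all, and 1.92% of the 25496 probes tested (2.6% in either direction). The background step bears on these calls, and it was chosen with earlier results known. With the local background subtracted without a limit, limma called 0 of the 25496 probes (3985 at an unadjusted p under 0.05) and 0 of the 10 genes (6 at an unadjusted p under 0.05), while with no background subtracted it called 493 probes and the same 4 genes. Without the limit Nrp1 was 7.78-fold and Angpt1 3.53-fold higher, and in the authors' deposited table they were 6.95-fold and 3.73-fold higher. In 9 of the 10 genes the ratio was above 1 on all 3 arrays, against 22.5% of all genes, and in 4 it was at least 2-fold on all 3 arrays, against 3.1% of all genes. Calls come from limma, which fits the log2 ratio of mutant over wild type for every probe, with Benjamini-Hochberg adjustment over all probes, and the value after ± is the SD over n = 3 arrays. In bulk RNA, more cells of a type and more RNA per cell cannot be told apart. The 4 calls all held in 9 of the 18 other settings tried, in part in 2, and in none of the 4 genes in 7. The calls are thus not firm, and the threshold of 0.1 is a setting that could lose none of them. Another of the 9, without replicate 2, left only arrays with the mutant in Cy3, where dye and genotype cannot be told apart. The ratios kept their direction in all 18, but settings that change only the filter, the test or the threshold leave a ratio as it was.

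**Figure D1:**
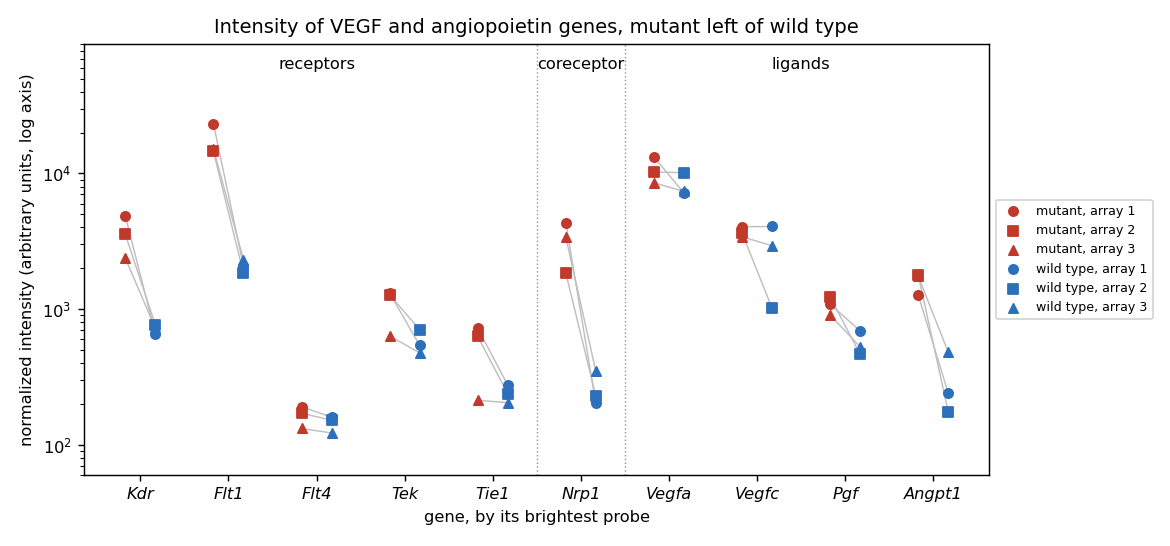
Normalized intensity of each gene's brightest probe (arbitrary units, log axis), mutant in red to the left of wild type in blue, with a line joining the RNAs of 1 array and a marker shape for each array. Mutant and wild-type points stand apart for Kdr, Flt1, Nrp1, Pgf and Angpt1, and overlap for the other 5 genes; levels of different genes are not comparable, as each comes from its own probe.

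Flt1, the high-affinity VEGF-A receptor, was higher in the mutant at its most downstream probe. There it read 23186, 14508 and 15158 intensity units in mutant embryoid bodies of replicates 1, 2 and 3, against 2078, 1840 and 2312 units in wild type. The lowest mutant value was well above the highest wild-type value, and the log2 ratio was 3.06 ± 0.39 (95% interval 2.46 to 3.65, adjusted p = 0.0310 in limma). The second Flt1 probe read 8565, 4442 and 2989 units in the mutant and 4859, 4132 and 3803 units in wild type. These groups overlapped, with log2 ratios of 0.82, 0.10 and -0.35 on arrays 1, 2 and 3 and a mean of 0.19 ± 0.59 (adjusted p = 0.754 in limma). The most upstream Flt1 probe was dim, at 112, 91.1 and 99.3 units in the mutant and 93.4, 94.5 and 80.8 units in wild type, was above background in wild type on 2 of 3 arrays, and had a mean log2 ratio of 0.17 ± 0.19 (adjusted p = 0.673 in limma).

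The log2 ratio of the first Flt1 probe exceeded that of the second by 2.66, 2.87 and 3.06 on arrays 1, 2 and 3, a mean difference of 2.87 ± 0.20, and that of the most upstream probe by 2.89 ± 0.42. The 8.32-fold difference was thus measured at 1 of the 3 probes, and the other 2 did not pass. Which of the full-length and soluble forms each probe reads was not determined. With the 3 probes averaged, Flt1 had a log2 ratio of 1.14 and was not called (adjusted p = 0.0758 in limma). Over the 18 settings, of which all but this one used the first probe alone, adjusted p lay between 0.00950 and 0.166 in limma.

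Kdr, the main signalling receptor of VEGF-A, read 4844, 3557 and 2369 units in mutant embryoid bodies at its first probe, against 657, 765 and 722 units in wild type. All mutant values lay above all wild-type values, and the log2 ratio was 2.27 ± 0.59 (95% interval 1.54 to 3.003, adjusted p = 0.0410 in limma). The repeated spots of this probe show the technical spread within an array: the ratio averaged 2.88 ± 0.090 over 10 spots on array 1, 2.22 ± 0.030 over 8 on array 2, where 2 outlier spots were left out, and 1.72 ± 0.091 over 10 on array 3. The arrays therefore differed from each other by far more than spots did within an array, with array 1 highest and array 3 lowest. The second Kdr probe, 1086 bases upstream, read 937, 920 and 471 units in the mutant and 833, 380 and 555 units in wild type. Here the groups overlapped, with log2 ratios of 0.17, 1.28 and -0.24 and a mean of 0.40 ± 0.78 (adjusted p = 0.566 in limma), so that array 2 alone was more than 2-fold higher. The first probe exceeded the second by 2.71, 0.94 and 1.95 on the log2 scale, and averaging both probes left Kdr at 1.34 and uncalled (adjusted p = 0.0828 in limma). Over the 18 settings, of which all but this one used the first probe alone, adjusted p lay between 0.0186 and 0.324 in limma.

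Flt4, the VEGF-C receptor, was near the lower end of the measurable range, at 191, 170 and 132 units in the mutant and 160, 152 and 122 units in wild type. The ratio was slightly above 1 on each array, but the groups overlapped, and the mean log2 ratio was 0.18 ± 0.07 (95% interval -0.29 to 0.65, adjusted p = 0.636 in limma). The 3 VEGF receptor genes therefore had unlike ratios at their brightest probes, large for Flt1 and Kdr and small for Flt4.

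Nrp1, the VEGF and semaphorin coreceptor, had the largest ratio of the 10 genes. Its probe read 4301, 1836 and 3381 units in mutant embryoid bodies, against 202, 229 and 349 units in wild type. All mutant values lay far above all wild-type values, and the log2 ratio was 3.56 ± 0.75 (95% interval 2.71 to 4.42, adjusted p = 0.0310 in limma), with 4.41, 3.003 and 3.28 on arrays 1, 2 and 3. Nrp1 was represented by 1 probe and 1 spot an array, so no second probe was at hand to compare with it. It was the only one of the 4 called genes still called when the probes of each gene were averaged (adjusted p = 0.0436 in limma, between 0.0101 and 0.25 over the 18 settings). Having 1 probe, it kept its ratio under averaging, so this is no check of its probe. Angpt1, also with 1 probe, kept its ratio too and was not called (adjusted p = 0.0514 in limma).

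The Tie receptors had smaller ratios that differed between arrays. Tek, the angiopoietin receptor, read 1310, 1274 and 634 units in the mutant and 540, 705 and 475 units in wild type. The mutant was higher on each array, but its lowest value lay below the highest wild-type value, and the log2 ratio of 0.85 ± 0.43 did not pass (95% interval 0.23 to 1.47, adjusted p = 0.145 in limma). Tie1 read 722, 628 and 212 units in the mutant and 276, 238 and 204 units in wild type. Its log2 ratio was 1.39 and 1.40 on arrays 1 and 2 and 0.058 on array 3, with a mean of 0.95 ± 0.77 (95% interval 0.070 to 1.83, adjusted p = 0.212 in limma). For Kdr, Tek and Tie1 alike, array 3 held the lowest mutant reading and the lowest ratio.

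**Figure D2:**
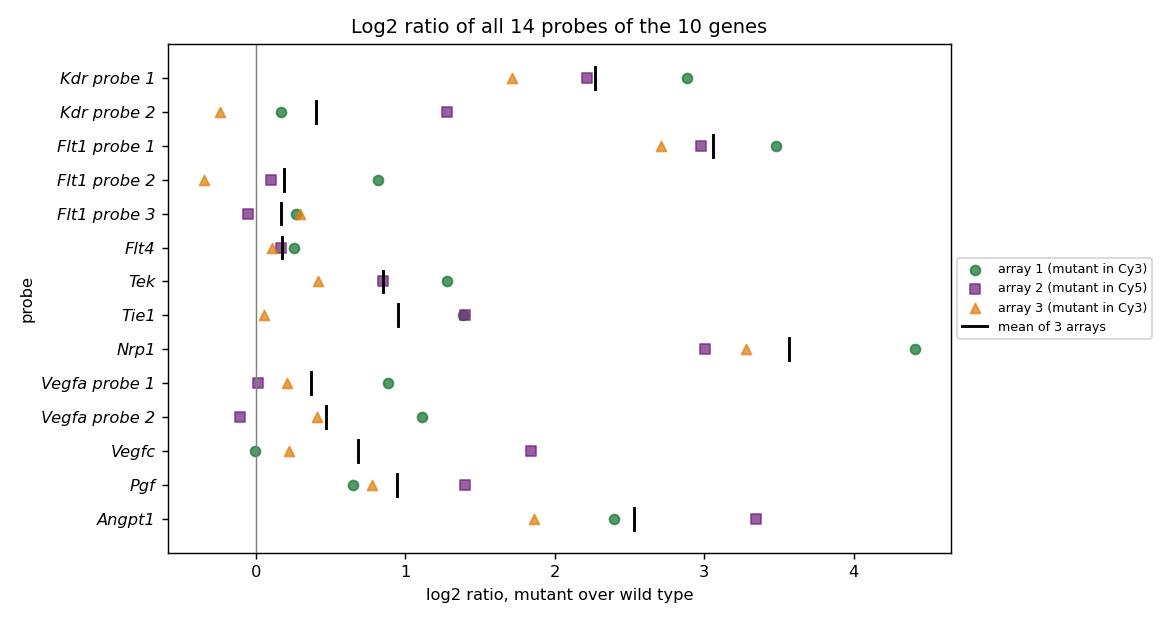
Log2 ratio of mutant over wild type (horizontal axis) for each of the 14 probes (rows, probe 1 of a gene being its brightest), with a symbol for each array and a black bar at the mean of the 3 arrays. The first probes of Flt1 and Kdr lie at 3.06 and 2.27, while the other probes of these genes lie between 0.17 and 0.40.

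Among the ligands, Angpt1 was the one that passed. It read 1268, 1783 and 1750 units in mutant embryoid bodies, against 241, 176 and 482 units in wild type. The groups did not overlap, and the log2 ratio was 2.53 ± 0.75 (95% interval 1.67 to 3.40, adjusted p = 0.0439 in limma), largest on array 2 at 3.34. Angpt1 lost its call when arrays were scaled to a common spread (adjusted p = 0.0547 in limma, between 0.00929 and 0.313 over the 18 settings).

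Pgf encodes placental growth factor, a ligand of Flt1 and not of Kdr. Its probe spans 86508335 to 86510337 on chromosome 12, more than its 60 bases, so its bases come from separate stretches of the genome. It read 1085, 1226 and 903 units in the mutant and 691, 465 and 527 units in wild type. The mutant values all lay above those of wild type, yet the log2 ratio of 0.94 ± 0.40 did not pass (95% interval 0.34 to 1.55, adjusted p = 0.115 in limma). Such separation, with the lowest mutant reading above the highest wild-type reading, was found in 5 of the 10 genes, against 13% of all genes.

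Vegfa, the principal VEGF ligand, was bright in both genotypes at its downstream probe (46154387 to 46154446 on chromosome 17, minus strand). It read 13254, 10250 and 8530.5 units in the mutant and 7170, 10124 and 7373 units in wild type. The groups overlapped, and the log2 ratio was 0.37 ± 0.46 (95% interval -0.27 to 1.01, adjusted p = 0.462 in limma). The upstream Vegfa probe, 7989 bases away, read 1054, 1432 and 840 units in the mutant and 488, 1541 and 631 units in wild type, a log2 ratio of 0.47 ± 0.61 (adjusted p = 0.426 in limma). Unlike those of Flt1 and Kdr, the 2 Vegfa probes differed by -0.10 ± 0.19 in log2 ratio, and on both of them array 1 was highest and array 2 lowest. The interval of the brighter Vegfa probe ended below those of Nrp1, Angpt1 and the first probes of Flt1 and Kdr, the called genes. It overlapped those of the other Flt1 probes (-0.54 to 0.92 and -0.33 to 0.67) and of the second Kdr probe (-0.49 to 1.29).

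Vegfc, the ligand of Flt4 and in its processed form of Kdr, depended on 1 array. It read 4045, 3645 and 3413 units in the mutant and 4065, 1016 and 2928 units in wild type. Mutant values were close together, while wild type was low on array 2, so that the log2 ratios were -0.0071, 1.84 and 0.22 with a mean of 0.69 ± 1.01 (adjusted p = 0.422 in limma). Without replicate 2 the mean log2 ratio of Vegfc was 0.11. On array 2 alone the mutant carried Cy5, and the dye and the culture cannot be told apart there.

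Receptors and ligands did not separate as classes. The median log2 ratio of the 5 receptor genes was 0.95 and that of the 4 ligand genes 0.81, a difference of 0.13, against a median of -0.01 over all probes tested. On arrays 1, 2 and 3 the receptor median was 1.39, 1.40 and 0.42, and the ligand median was 0.77, 1.62 and 0.50. Receptors thus stood above ligands on array 1 and below them on arrays 2 and 3, by 0.62, -0.22 and -0.08, with an SD of 0.45 that exceeds the mean difference. Called and uncalled genes occurred in both classes, with 2 of 5 receptors and 1 of 4 ligands called, and each class held a gene with a ratio near 1, Flt4 among the receptors and Vegfa among the ligands. No test was made of this difference, since the genes were chosen with results of these data known. Without replicate 1 the receptor median fell below the ligand median, by -0.33.

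**Figure D3:**
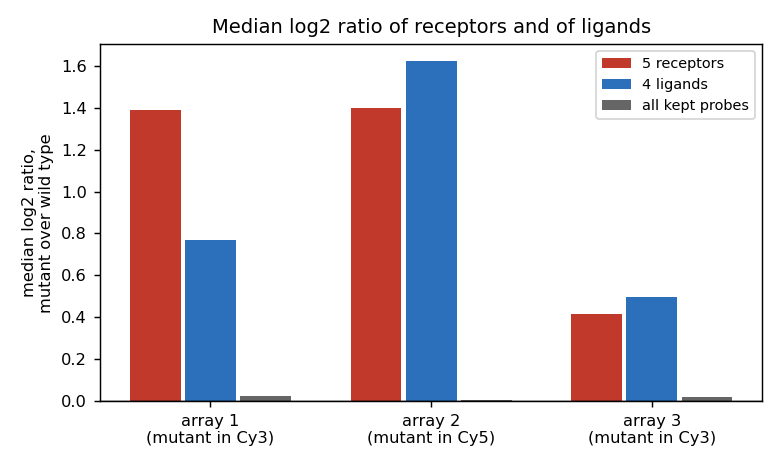
Median log2 ratio of mutant over wild type (vertical axis) on each array for the 5 receptor genes (red), the 4 ligand genes (blue) and all kept probes (grey). Receptors were above ligands on array 1, at 1.39 and 0.77, and below them on arrays 2 and 3, while the median of all probes stayed within 0.03 of 0.

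Genes whose 3 array ratios lay nearest those of Flt1 and Kdr were looked up among genes with an official symbol, by the Euclidean distance of the 3 log2 ratios; with 3 arrays this likeness is a description only. Nearest to Flt1 (3.48, 2.98 and 2.71) were Kmt2e, a chromatin protein, at a distance of 0.18, the sterol carrier gene Stard4 at 0.23, the heart and mesoderm transcription factor gene Hand2 at 0.24 and Gigyf1, a translation regulator, at 0.36. Nearest to Kdr (2.88, 2.22 and 1.72) were the fibrillin gene Fbn1 at 0.12, the apolipoprotein gene Apom at 0.21, the soluble guanylate cyclase subunit gene Gucy1a1 at 0.31 and Slc28a2b at 0.44. All 8 were called higher in the mutant, with mean log2 ratios between 2.12 and 3.07, against 1.89% of all genes called higher. This follows from the choice, as they were picked for ratios close to those of the called genes Flt1 and Kdr.

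Other receptors and partners of the pathway were mostly uncalled. Of 9 listed genes 1 rose, Nrp2, the second neuropilin and a partner of Flt4, at 1.84 ± 0.28 (adjusted p = 0.0379 in limma); its wild-type signal was above background on 2 of 3 arrays. The semaphorin receptor Plxnd1 was at 1.49 ± 0.45 (adjusted p = 0.0564 in limma) and Ptprb, the endothelial phosphatase VE-PTP that restrains Tek, at 1.46 ± 0.57. Both neuropilin genes were thus called, and the list had a median of 0.60. For this list and those below, the shares over all genes were 1.89% called higher, 0.641% called lower and 12.2% higher at an unadjusted p under 0.05 in limma.

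Among 12 further ligands and modulators, 10 had a kept probe, but the probe named Angpt4 is placed on chromosome 14 by the file and on 2 by RefSeq and was not read as that gene. Of the other 9, none was called by limma, 4 were higher and 1 lower at an unadjusted p under 0.05, and the median was 0.049, against 0.49 with that probe. The lowest p values were those of Sema3c, a neuropilin ligand, at -1.34 ± 0.39, Esm1, a gene that VEGF induces in sprouting tip cells, at 1.98 ± 0.78, and Ccbe1, which promotes VEGF-C processing, at 0.99 ± 0.08.

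Of the 18 signalling and VEGF-induced genes 16 were kept and none was called by limma, with a median of 0.43. At an unadjusted p under 0.05, 3 were higher, against 12.2% of all genes. Notch1, the receptor that limits sprouting, was at 3.61 ± 1.43 (adjusted p = 0.0530 in limma), with 4.45, 1.96 and 4.42 on arrays 1, 2 and 3. Hey2, a Notch target of arterial and cardiac cells, was at 0.88 ± 0.37 and the nitric oxide synthase gene Nos3 at 0.78 ± 0.60.

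The 17 hypoxia and HIF target genes, the class to which Vegfa itself belongs, had a median of 0.13 and array medians of 0.59, -0.29 and -0.08 (0.14, and 0.65, -0.33 and -0.08, without the probe named Pgk1, which the file places on chromosome 3 and RefSeq on X). None was called by limma, and 1 was higher at an unadjusted p under 0.05, the glucose transporter gene Slc2a1 at 1.24 ± 0.70. The mitophagy gene Bnip3 was at 0.57 ± 0.53 and adrenomedullin, Adm, at 0.74 ± 0.93. On array 1 the hypoxia list, Vegfa and Slc2a1 all had their highest ratio, but this was not particular to hypoxia genes. By their brightest probes Flt1, Kdr, Nrp1, Flt4 and Tek were also highest there, while Angpt1, Pgf, Vegfc and Tie1 were not. The medians of the visceral endoderm and blood markers were highest on array 1 as well. A link between hypoxia and Vegfa was not tested.

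Of the 17 endothelial transcription factor genes 16 were kept and 1 rose, the ETS factor gene Fli1, at 1.72 ± 0.47 (adjusted p = 0.0486 in limma). The list had a median of 0.51, with 8 genes higher at an unadjusted p under 0.05, against 12.2% of all genes. Foxo1, which restrains endothelial growth, was at 0.87 ± 0.19 and the ETS factor gene Elk3 at 0.80 ± 0.18.

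**Figure D4:**
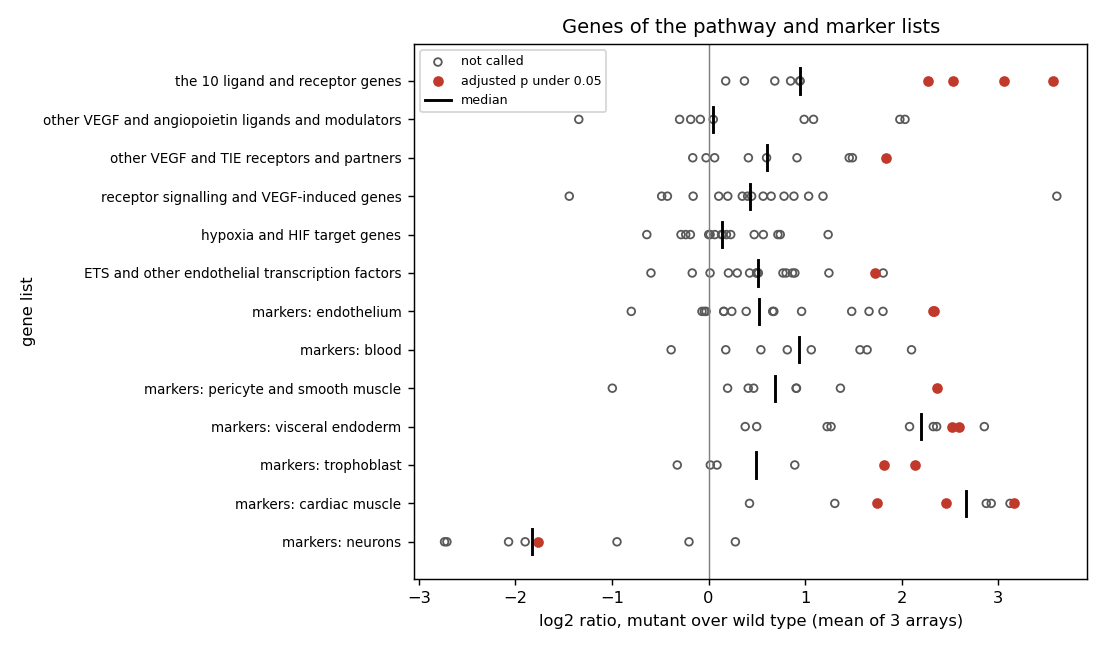
Mean log2 ratio of mutant over wild type (horizontal axis) for every kept gene of the named list in each row, leaving out the 3 probes placed on another chromosome, with called genes filled in red, other genes open and a black bar at the list's median. The 10 ligand and receptor genes are in the top row; the highest medians are those of the cardiac muscle and visceral endoderm markers, and the only one below 0 is that of the neuron markers.

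Markers of cell types that can express these genes were read in the same fit. Of 16 endothelial markers 2 rose, the surface protein gene Cd34 at 2.34 ± 0.29 (adjusted p = 0.0310 in limma) and the adhesion gene Icam2 at 2.32 ± 0.65, while the guidance receptor gene Robo4 was at 1.48 ± 0.37 (adjusted p = 0.0511 in limma) and the median was 0.53. Over all genes 1.89% were called higher. At an unadjusted p under 0.05, 8 of the markers were higher, against 12.2% of all genes. At that threshold 1 was lower, the junction gene Esam at -0.80 ± 0.49, which was below 0 on all 3 arrays. All 16 were kept, and the defining junction gene Cdh5 (VE-cadherin) was at -0.026 ± 0.40 and Pecam1 at 0.66 ± 0.27; these and Esam were named after their values were seen. Summed over the 16 genes, intensity was 31863 to 39136 units in the mutant and 22057 to 34888 units in wild type. The ranges overlapped, but the mutant sum was the higher on each array, at 32477 against 24140 units on array 1, 39136 against 34888 on array 2 and 31863 against 22057 on array 3. A few genes weighed heavily in these sums. On array 2 the called Cd34 and Icam2 read 3063 against 673 and 2232 against 346 units. The uncalled Egfl7, the brightest marker, read 15042 against 17512 units on array 2 and 13307 against 8861 on array 3. Among blood markers, where Tek is also found, 0 of 8 kept genes were called by limma, 4 were higher at an unadjusted p under 0.05, the median was 0.94, and the pan-leukocyte gene Ptprc and Spi1 were not kept. Itga2b was at 1.57 ± 0.46, Csf1r at 1.64 ± 0.68 and the embryonic globin gene Hbb-bh1 at 1.06 ± 0.59, while the erythroid regulators Gata1 at -0.39 ± 0.57 and Klf1 at 0.18 ± 0.28, named after their values were seen, did not pass. The summed level was 42004 to 84757 units in the mutant and 19277 to 25957 units in wild type, and globins made up much of it, with Hbb-y alone at 43295 units in the mutant and 5344 in wild type on array 1.

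Cells that surround vessels, a source of Angpt1, were covered by 10 pericyte and smooth muscle markers, of which 8 were kept and 1 rose, smooth muscle actin Acta2 at 2.36 ± 0.14 (adjusted p = 0.0310 in limma). The pericyte gene Rgs5 had a wild-type signal not well above background on any array, so its ratio is uncertain. Mean intensity was 203 units in the mutant and 77.9 units in wild type. The log2 ratio of Rgs5 was 1.37 ± 0.41 and did not pass (95% interval 0.75 to 1.98, adjusted p = 0.0608 in limma). Its values were 1.83, 1.03 and 1.24 on arrays 1, 2 and 3, and they are open to dye bias. Pdgfrb was at 0.91 ± 0.39, and the median of the list was 0.69. Other members, named after their values were seen, differed between arrays, with Cnn1 at -2.02, -1.66 and 0.69 and Des at -0.22, -0.07 and 1.70 on arrays 1, 2 and 3. The pericyte genes Kcnj8 and Abcc9 were not kept. The summed level was 40782 to 47340 units in the mutant and 9047 to 22315 units in wild type, of which Acta2 alone gave 28165 to 32162 units in the mutant and 4955 to 6858 units in wild type.

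Of 8 cardiac markers 3 rose, Tnnt2 at 3.16 ± 0.69, Nppa at 2.46 ± 0.74 and Nkx2-5 at 1.75 ± 0.50. At an unadjusted p under 0.05 in limma 7 of the 8 were higher, and the median was 2.67. Their summed level was 15088 to 78411 units in the mutant and 4633 to 9643 units in wild type. Of 10 visceral endoderm markers 2 rose, Ttr at 2.59 ± 0.69 and Apoa4 at 2.52 ± 0.75, with Apoa1 at 2.36 ± 1.16. At an unadjusted p under 0.05 in limma 7 of the 10 were higher, and the median was 2.20. The summed level was 286206 to 463045 units in the mutant and 63551 to 168993 units in wild type. Over all genes, 1.89% were called higher and 12.2% were higher at an unadjusted p under 0.05. Of the trophoblast markers, the probe named Gcm1 lies on chromosome 7 in the file and on 9 in RefSeq and was not read as that gene. Of the 6 other kept markers 2 rose, Hand1 at 1.82 ± 0.30 and Cdx2 at 2.14 ± 0.56, which are also genes of mesoderm and of gut, and the median was 0.49. Elf5 was at -0.32 ± 0.16 and Prl3d1 at 0.02 ± 1.72, both named after their values were seen, and Tpbpa was not kept. The summed level of the 6 genes was 11996 to 15667 units in the mutant and 5650 to 7043 units in wild type. Of 8 neuron markers, relevant to Nrp1, 1 fell, Stmn2 at -1.76 ± 0.52 (adjusted p = 0.0499 in limma), 6 were lower at an unadjusted p under 0.05, and the median was -1.83. Tubb3 was at -1.90 ± 1.21 and Elavl4 at -2.07 ± 1.41, while Elavl3 at 0.28 ± 0.68 and Nefl at -0.20 ± 1.74, named after their values were seen, went different ways on different arrays. Their summed level was 4597 units in the mutant and 8296 in wild type on array 1, 4008 and 3997 on array 2, and 3838 and 23009 on array 3, so that array 2 showed no such gap. The part of these cell types in the ratios of the 10 genes was not tested.

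Promoter sequence was at hand for 9 of the 10 genes, in 11 windows from RefSeq (GRCm38.p6), of which the 250 bases before the start were read. They were searched on both strands for the core of ETS factor sites, GGAA, since such factors act on many endothelial genes, and for the hypoxia response core, ACGTG or GCGTG. The windows of the called genes Flt1 (chr5:147726012-147726261, minus strand), Kdr (chr5:75978456-75978705, minus strand) and Nrp1 (chr8:128358823-128359072, plus strand) are shown, with GGAA or its reverse complement TTCC in capitals.
Flt1 promoter: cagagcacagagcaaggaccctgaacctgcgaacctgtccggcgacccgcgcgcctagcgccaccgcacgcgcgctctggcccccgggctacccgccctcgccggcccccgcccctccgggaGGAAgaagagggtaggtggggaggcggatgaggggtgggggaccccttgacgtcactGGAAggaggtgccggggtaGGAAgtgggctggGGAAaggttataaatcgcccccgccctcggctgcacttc
Kdr promoter: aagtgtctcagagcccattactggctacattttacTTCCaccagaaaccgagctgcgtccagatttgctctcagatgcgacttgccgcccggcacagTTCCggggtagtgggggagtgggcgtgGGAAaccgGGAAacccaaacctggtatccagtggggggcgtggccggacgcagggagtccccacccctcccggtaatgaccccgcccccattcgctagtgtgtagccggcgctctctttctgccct
Nrp1 promoter: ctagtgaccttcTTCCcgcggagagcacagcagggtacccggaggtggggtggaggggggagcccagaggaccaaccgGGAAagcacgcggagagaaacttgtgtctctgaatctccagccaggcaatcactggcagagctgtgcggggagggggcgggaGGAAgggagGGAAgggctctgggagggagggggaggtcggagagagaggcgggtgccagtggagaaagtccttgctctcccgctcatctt
Each of the 3 windows held 4 ETS cores, as did 33.4% of all 32851 promoters with at least 4. Tie1, which was not called, held 7, a number reached by 3.82% of all promoters, and the 2 windows of Pgf held 0. A hypoxia core was found once in Flt1 and in Nrp1 and in 2 places in Kdr, while 38.6% of all promoters held at least 1 and 16.7% at least 2. The windows of Vegfa, which was not called, held 2 and 0. GC content was 70.4% in the Flt1 window, 61.6% in that of Kdr and 64.4% in that of Nrp1, against a median of 52.4% over all promoters. These matches describe the letters of the windows and name no binding site.

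The arrays themselves were alike in most respects. The mutant channel had 64.5% to 73.6% of its probes well above background and the wild-type channel 63.4% to 74.8%, and saturated spots numbered 0. The local background of 25 spots of array 2 exceeded 100 units and reached 75739, while arrays 1 and 3 stayed at or below 60, and it was limited to 100 units before correction. Without that limit the log2 ratio of array 2 was 1.19 for Nrp1, 1.20 for Angpt1, 1.504 for Kdr and 2.59 for Flt1, and arrays 1 and 3 were as before. Dido1, the altered gene, was read by 4 probes with mean log2 ratios between -3.60 and 3.03, so its probes went both ways. Precision is limited by there being 3 arrays.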

How the data were processed

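RNA of 3 mutant and 3 wild-type embryoid body cultures was hybridised in pairs on 3 arrays, per the labels. Per the file headers, Feature Extraction 10.7.3.1 of Agilent wrote the deposited intensity of spots and background and a log10 ratio of red over green. Log2 ratios fill a value table deposited by the authors; limma is named in the submitters' processing notes. Its slopes on the scanner's ratios, over 10742 bright spots, were 0.91, 0.93 and 0.97, which sets the direction as mutant over wild type, with medians of -0.01, 0.02 and -0.01; its centring stays unknown.

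In R 4.3.3 with limma 3.58.1, local background was limited to 100 units and subtracted by normexp (offset 50), arrays were normalized by loess (weight 0 for controls), outliers and controls were dropped, and repeated spots were averaged. Kept probes, 25496 of 39429, had a signal well above background in 1 genotype or both on every array. The two-sided test of lmFit and eBayes set each mean ratio against 0, adjusted over all kept probes, and called at 0.05. The brightest kept probe stood for a gene in counts and medians. Intensities are those of each channel after loess and Aquantile scaling. P-values rest on the spread of the ratio over these 3 arrays, each of 1 mutant and 1 wild-type culture. This spread is moderated by eBayes with that of all kept probes.

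The members, the gene lists and the limit on the background were chosen with earlier results of these data known. Named genes are all probes of the members, up to 3 genes of each list with the smallest p, and the 4 genes nearest to Flt1 and to Kdr. Ratios of 25496 probes were also simulated with the spread of this fit, with 100 probes shifted 2-fold (log2 1) and 100 shifted further (log2 2). Called probes numbered 0 in both sets, while 80% and 96% had an unadjusted p under 0.05. The simulation altered 200 probes, whereas the data held 5348 probes at an unadjusted p under 0.05, of which 664 were called. Adjusted p depends on how many probes have a small p, so these simulated counts do not show which shifts could be called in the data.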

Additional observations from a re-analysis of the deposited data

How the results depend on the processing

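In the settings tried beside the reported one, all 10 genes kept a mean log2 ratio above 0 by their brightest probe or the mean of their probes. Settings that change only the filter, the test or the threshold leave these ratios as they were. The 664 called probes and 4 called genes of the list became 0 and 0 without a limit on the local background, without a filter on dim probes, with an intensity trend, with a 2-fold minimum and with the authors' deposited values, all in limma; at an unadjusted p under 0.05 these settings had 3985, 6665, 5411, 990 and 5201 probes and 6, 7, 7, 4 and 6 genes of the list. The probe count was 1139 with an offset of 16, 1315 with the scanner's log ratio, 1945 at an adjusted p of 0.1 and 3900 with a dye term, and 325 and 258 genes with 1 value per gene by the brightest probe and by the mean of probes, the last with 1 gene of the list, Nrp1. The cause of these shifts was not tested. Leaving out 1 replicate at a time gave 0 to 7191 called probes and 0 to 5 called genes of the list: 0 and 0 without replicate 1 (2269 probes and 5 genes at an unadjusted p under 0.05), 7191 and 5 without replicate 2, and 0 and 0 without replicate 3 (3167 and 7). The receptor median minus the ligand median then lay between -0.33 (without replicate 1) and 0.42 (without replicate 3). With 1 replicate left out, the second Flt1 probe lay between -0.12 (without replicate 1) and 0.46, and the second Kdr probe between -0.034 (without replicate 2) and 0.72; the negative values are opposite in sign to the mean of all arrays, and neither was called. With a dye term, array 2 is alone in its orientation and is fitted exactly. Without replicate 2, only arrays with the mutant in Cy3 were left, so dye and genotype cannot be told apart in the counts of that setting. Leaving out 3 probes placed on another chromosome in RefSeq, a choice made after seeing the data, moved the median of the other ligands and modulators to 0.049, against 0.49, and that of the trophoblast markers to 0.49, against 0.89. Without background subtraction 493 probes and 4 genes of the list were called. The reported test is already paired by array. It sets against 0 the log2 ratio of the mutant and the wild-type RNA that shared an array. Signal over background limits Flt4 and the third Flt1 probe most.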
